A study of Mus musculus with 6 samples.

Results

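The regulators of apoptosis and necroptosis were followed in macrophages of the mouse pancreas during caerulein pancreatitis, as a fixed set of 33 genes taken by name from a table of 31617 genes. All 33 were found, and 26 were among the 10000 genes with the highest mean over the libraries, called expressed below; the other 7 (Bcl2l2, Bcl2a1b, Bak1, Bok, Bik, Bmf and Casp12) lay under that limit, at a mean normalised read count of 74.1. RNA came from wild-type Balb/c mice treated with caerulein, a peptide related to cholecystokinin that drives acinar cells to excess secretion, in 10 hourly intraperitoneal injections at 100 mg/kg as the design text writes the dose. Cells sorted as CD45+CD11b+F4/80+ came from mice on days 1, 3, 4, 5 and 7 of the course and from mock mice, which received saline per the design text and no treatment per the sample label, and which stand as day 0. Day 4 is given by its sample label alone. No source used here gives the age or sex of the mice. Each day was 1 library made from a pool of more than 3 mice, which leaves every difference between 2 days without a replicate check and without a test.

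Apoptosis through mitochondria is set by the BCL2 family: anti-apoptotic members hold the pore formers BAX and BAK in check, and BH3-only proteins release or activate them, after which cytochrome c and APAF1 activate caspase-9. Death receptors act through FADD and caspase-8 instead, and where caspase-8 is not active the kinases RIPK1 and RIPK3 can pass the signal to MLKL, which breaks the plasma membrane in necroptosis. Gasdermin D is the pore former of pyroptosis. In macrophages some of these genes are also known as targets of interferon and NF-kB signalling.

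The libraries held between 14853084 and 25726455 reads, recovered from the deposited values as described under the processing. The sorted markers were present in each: Adgre1, which encodes F4/80, ranged from 9671 to 23702 normalised read counts, Itgam (CD11b) from 678 to 2627 and Ptprc (CD45) from 7282 to 12626, and none of 8 macrophage markers was at 0. Transcripts of other cells were also present. The 9 acinar genes, which include Pnlip and Cela1, summed to 390446 in mock and to 29184, 29727, 11936, 16858 and 462073 on days 1, 3, 4, 5 and 7, with Amy2a5 at 0 on day 1. In these bulk samples, a lower share of cells carrying a transcript and less of it per cell cannot be told apart.

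Per kilobase of exon, the regulators spanned a wide range of levels. Mcl1, an anti-apoptotic member of the BCL2 family, was the highest, with a mean of 7245 normalised read counts per kilobase over the 6 libraries. Bax followed at 2190 per kilobase, then Gsdmd at 1360, Casp8 at 1254, Bcl2a1d at 1243, Pmaip1 at 744 and Ripk3 at 600.3. The lowest were Bcl2l2 at 3.89, Bak1 at 6.77 and Casp12 at 7.69 per kilobase. Exon lengths were those of GENCODE M21 on GRCm38, which may not be the annotation the counts were made with. Several members overlap other genes there, so that part of their reads is uncertain: Bcl2a1b over 49.1% of its exon bases and Diablo over 19.3%, Bcl2l2 over 13.3% and Bax over 12.2% on the same strand, and Bak1 over 25.5%, Diablo over 23.5%, Bad over 20.5% and Bid over 17.7% on the opposite strand.

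**Figure D1:**
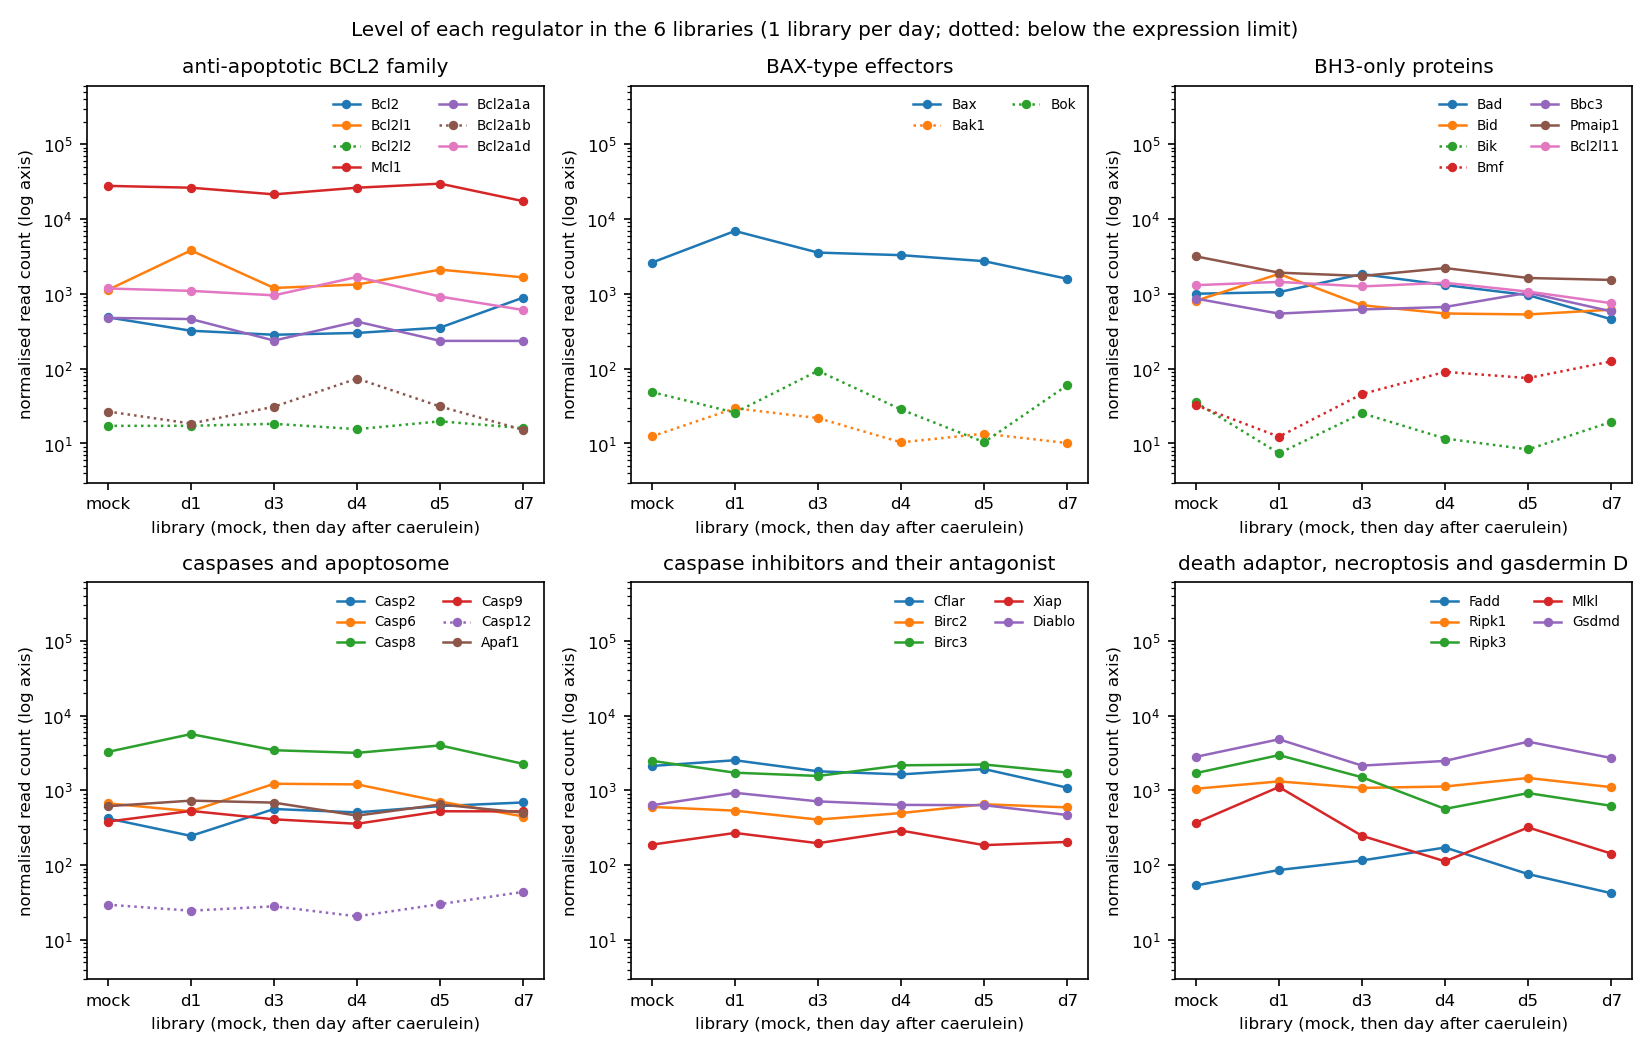
Normalised read counts (log axis) of the 33 regulators in the 6 libraries, in 6 panels by role, with 1 library per point and lines that only join points. Mcl1 lies above the others in its panel in every library, Mlkl runs between 113 on day 4 and 1109 on day 1, and the 7 dotted genes lie under the expression limit.

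Among the anti-apoptotic genes, Bcl2l1, which encodes BCL-XL, was the one that stood at least 2-fold above mock on any day among the 5 expressed. It had 1128 normalised read counts in mock and 3809, 1198, 1333, 2107 and 1661 on days 1, 3, 4, 5 and 7. Mock was the lowest library and day 1 the highest, 3.34 times the mock value, a log2 ratio of 1.74 with the pseudocount. Taken from reads without pseudocount, the 95% Clopper-Pearson interval of that ratio ran from 1.66 to 1.85. These intervals cover counting error only, not how pools of mice vary.

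Bcl2 took another course. It had 485 normalised read counts in mock and 321, 284, 300.2, 354 and 892 on days 1, 3, 4, 5 and 7, so that day 7 was highest and day 3 lowest. The log2 ratio on day 7 was 0.86 against mock and 1.29 against day 5 (95% counting interval 1.16 to 1.52). BCL2 is abundant in lymphocytes. The 9 T and NK cell markers, which include Cd3e and Ncr1, summed to 4791 in mock and to 1238, 442, 982, 2213 and 8733 on those days, and the 7 B cell markers, which include Cd79a and Ms4a1, to 6462, 1922, 737, 1086, 1328 and 5778. On day 7, 3 of 8 expressed T and NK markers and 0 of 6 expressed B cell markers were at least 2-fold above mock, and no marker of either list was at 0 in any library. Their part in the level of Bcl2 was not tested.

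Mcl1 had 27744 normalised read counts in mock and 26217, 21367, 26232, 29700 and 17323 on days 1, 3, 4, 5 and 7. Day 5 was highest and day 7 lowest, with log2 ratios of 0.10 and -0.68 against mock. Bcl2l2, which encodes BCL-W, had 15.5 to 19.8 normalised read counts, or 12 to 26 reads per library, and at that depth a difference between days was not detectable.

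The Bcl2a1 genes encode A1, a short-lived anti-apoptotic protein induced by NF-kB, and exist in the mouse as near-identical copies on chromosome 9. Their coding sequences are shown because the copies differ at so few positions that reads can be shared between them. The first 120 of 516 coding bases hold 7 of the 12 positions at which the 3 copies differ, and those positions are in capitals (GENCODE M21 transcripts, GRCm38, 5′ to 3′).
Bcl2a1a: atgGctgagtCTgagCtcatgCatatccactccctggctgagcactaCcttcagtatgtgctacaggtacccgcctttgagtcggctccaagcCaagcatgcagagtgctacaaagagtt
Bcl2a1b: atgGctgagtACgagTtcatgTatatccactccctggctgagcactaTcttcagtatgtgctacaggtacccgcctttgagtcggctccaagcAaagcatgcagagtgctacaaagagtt
Bcl2a1d: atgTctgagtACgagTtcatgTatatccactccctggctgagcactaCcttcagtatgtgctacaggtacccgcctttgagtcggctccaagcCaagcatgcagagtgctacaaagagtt
Coding identity was 97.9% between Bcl2a1a and Bcl2a1b, 98.6% between Bcl2a1a and Bcl2a1d and 98.8% between Bcl2a1b and Bcl2a1d. Of all 50-base windows of the transcript, 69.0% for Bcl2a1a, 57.6% for Bcl2a1b and 79.5% for Bcl2a1d also occur in another copy, so the split between copies depends on how shared reads were counted, which the sources used here do not give.

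As deposited, Bcl2a1d had 1179 normalised read counts in mock and 1095, 955, 1682, 918 and 608 on days 1, 3, 4, 5 and 7. Bcl2a1a had 477, 460.3, 237, 426, 235 and 235 in the same libraries. Both were higher on day 4 than on day 3 and on day 5, and Bcl2a1d was highest on day 4. The sum of the 3 copies was 1683 in mock and 1574, 1223, 2181, 1185 and 858 on those days. It does not depend on how reads were divided among the 3. It may still depend on whether shared reads were dropped or counted more than once. Bcl2a1a took 28.3% of these reads in mock (95% Clopper-Pearson interval 26.2 to 30.5), 29.2% on day 1 and 27.4% on day 7, but 19.4%, 19.5% and 19.8% on days 3, 4 and 5, with intervals that do not overlap those of the other libraries. Bcl2a1b, with 15 to 57 reads per library, was at its highest on day 4 as well, at 73.8 normalised read counts against 26.7 in mock.

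Of the pore formers Bax was abundant and Bak1 and Bok were scarce. Bax had 2613 normalised read counts in mock and 6922, 3560, 3289, 2733 and 1589 on days 1, 3, 4, 5 and 7. Day 1 was highest, at 2.64 times mock (log2 ratio 1.40, counting interval 1.34 to 1.47), and each later library was lower than the one before it, down to a log2 ratio of -0.71 against mock on day 7. Bak1 had 8 to 31 reads per library. Bok, a BAX relative with an uncertain role in death, had 48.7 normalised read counts in mock and 25.8, 93.7, 28.5, 10.4 and 60.0 in the caerulein libraries. The 8 fibroblast and stellate cell markers summed to 3072 in mock and to 517, 15691, 798, 2044 and 8418 on the same days, with none at 0. Like Bok, the sum and 5 of the 8 markers, collagens among them, were highest on day 3, while Dcn, Pdgfra and Pdgfrb were highest on day 7. Unlike Bok, which was lowest on day 5, the sum was lowest on day 1. The sums of 7 duct and 5 erythroid markers were highest on day 3 (3624 and 3609) and lowest on day 5 (204 and 35.4). The sum of 8 dividing cell markers was also highest on day 3. The part of these lists in the level of Bok was not tested.

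The BH3-only genes took separate courses. Bid, whose product links caspase-8 to mitochondria when cleaved, had 808 normalised read counts in mock and 1847, 704, 546, 530.4 and 614 on days 1, 3, 4, 5 and 7. Day 1 stood alone, at a log2 ratio of 1.18 against mock (counting interval 1.07 to 1.32) and 0.93 under total-count scaling, while the other days lay below mock. For Bad, whose product responds to growth factor signalling, mock stood at 1004 and those days at 1053, 1838, 1312, 961 and 458, with a maximum on day 3 (log2 ratio 0.86) and a minimum on day 7 (-1.10, or -0.83 under total-count scaling).

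Pmaip1 and Bbc3 encode NOXA and PUMA, both targets of p53. Pmaip1 had 3170 normalised read counts in mock and 1919, 1734, 2210, 1629 and 1534 on days 1, 3, 4, 5 and 7, and was lower than mock in 5 of 5 caerulein libraries. Its log2 ratio reached -1.04 on day 7, and -0.76 under total-count scaling. Bbc3 had 864 in mock and 544, 618, 668, 1035 and 584, with day 5 above mock and the other days below. Bcl2l11, which encodes BIM, had 1305 in mock and 1445, 1256, 1405, 1071 and 751, so that day 7 was lowest at a log2 ratio of -0.78.

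Bmf and Bik were scarce. Bmf, whose product is released from the cytoskeleton, had 32.5 normalised read counts in mock and 12.3, 45.8, 90.6, 74.9 and 125 on days 1, 3, 4, 5 and 7, from 34 reads in mock and 10, 65, 70, 72 and 148 reads. It was lowest on day 1 and highest on day 7, when the log2 ratio against mock was 1.51 with the pseudocount and 1.94 without (counting interval 1.40 to 2.53). Bik, known mainly from epithelial cells, had 6 to 37 reads per library, with mock highest at 35.3 normalised read counts and day 1 lowest at 7.38.

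Among the caspases, Casp8, the initiator of death receptor signalling that also blocks necroptosis, had 3263 normalised read counts in mock and 5650, 3438, 3169, 3986 and 2259 on days 1, 3, 4, 5 and 7. Day 1 was highest with a log2 ratio of 0.79 (counting interval 0.73 to 0.86), day 5 next, and day 7 lowest at -0.53. Casp6, an executioner, had 669 in mock and 525, 1225, 1201, 709 and 447, with days 3 and 4 above all others at log2 ratios of 0.85 and 0.83. Casp2, an initiator tied to DNA damage and cell division, had 421 in mock and 246, 563, 507, 617 and 688, so that day 1 was lowest (log2 ratio -0.73) and day 7 highest (0.69).

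The apoptosome genes varied less. Casp9, the initiator it activates, stayed between 357 and 530.4 normalised read counts and Apaf1, its scaffold, between 459 and 729, ranges of 1.46-fold and 1.56-fold over the 6 libraries. Casp12, a caspase of the endoplasmic reticulum in the mouse, had 16 to 52 reads per library, and its counting intervals against mock included 0 on each day.

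The caspase inhibitors also varied little, apart from Cflar. Cflar, which encodes the caspase-8 inhibitor FLIP, had 2117 normalised read counts in mock and 2525, 1797, 1633, 1925 and 1085 on days 1, 3, 4, 5 and 7, with day 7 lowest at a log2 ratio of -0.95. Birc3, which encodes cIAP2 and is induced by NF-kB, had 2479 in mock and between 1558 and 2214 on the 5 days, below mock in each. Birc2 (cIAP1) ranged from 406 to 651 and Xiap, the direct inhibitor of caspases, from 185 to 290. Diablo, which encodes their antagonist SMAC, had 632 in mock, 927 on day 1 and 468 on day 7, its highest and lowest caerulein libraries.

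Mlkl, the executor of necroptosis, had a range of 8.64-fold with the pseudocount, the widest of the 26 expressed genes; without it the scarce Bmf had a wider log2 range, 3.34 against 3.30 for Mlkl. It had 368 normalised read counts in mock and 1109, 247, 113, 319 and 143 on days 1, 3, 4, 5 and 7. Day 1 was highest at a log2 ratio of 1.55 against mock (counting interval 1.42 to 1.77), day 4 lowest at -1.56 (-2.06 to -1.37), and day 5 stood between, at 1.37 above day 4 (1.16 to 1.86). Ripk3, the kinase that phosphorylates MLKL, had 1699 in mock and 2956, 1496, 565, 918 and 621 in the 5 caerulein libraries. It shared with Mlkl the maximum on day 1 (log2 ratio 0.79) and the minimum on day 4 (-1.56, counting interval -1.74 to -1.44), but its day 5 value remained further below mock, at -0.87.

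Ripk1, the upstream kinase, hardly varied, with 1050 normalised read counts in mock and 1317, 1078, 1126, 1463 and 1104 on days 1, 3, 4, 5 and 7, a range of 1.39-fold. Fadd, the adaptor that recruits caspase-8, had 53.5 in mock and 86.1, 116, 172, 75.9 and 42.2. It was highest on day 4, where Mlkl and Ripk3 were lowest, with a log2 ratio of 1.41 against mock from 133 reads against 56. Gsdmd had 2803 in mock and 4808, 2141, 2474, 4470 and 2707, with log2 ratios of 0.77 on day 1 and 0.67 on day 5 and values below mock on days 3, 4 and 7.

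The interferon-induced genes were also highest on day 1 and lowest on day 4, but unlike Mlkl they were above mock on day 5. The 12 genes of that list, which include Ifit1 and Isg15, summed to 36063 normalised read counts in mock and to 208681, 6669, 6420, 100329 and 23669 on days 1, 3, 4, 5 and 7, with none at 0. Against mock 11 of 12 were at least 2-fold higher on day 1 and 7 of 12 on day 5, and 12 of 12 were at least 2-fold lower on days 3 and 4. Zbp1, an interferon-induced sensor that can engage RIPK3, had 2841 in mock and 11471, 831, 474, 5116 and 1549. The 7 monocyte markers, which include Ly6c2 and Ccr2, summed to 43628 in mock, and none was at 0 in any library. The sum was 131685, 48707, 21260, 17553 and 23080 on days 1, 3, 4, 5 and 7. On day 1, 5 of 7 were at least 2-fold higher than mock and 1 lower, Fn1 at -2.05, while Ccr2 was at 0.34. Fn1 and Ccr2 were highest on day 3. On days 4 and 5, 6 of 7 were at least 2-fold lower, all but Ccr2. The part of either list in the levels of Mlkl, Ripk3, Casp8 and Gsdmd was not tested.

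**Figure D2:**
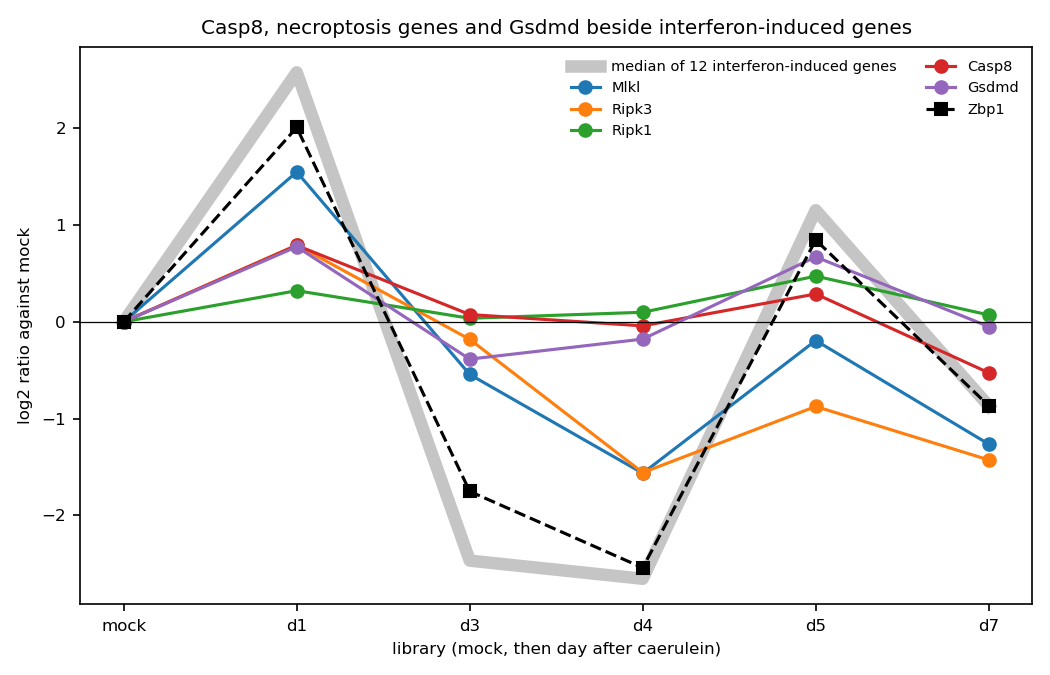
Log2 ratio against mock (y axis) of Casp8, Ripk1, Ripk3, Mlkl, Gsdmd and Zbp1 by library, over the median of 12 interferon-induced genes (broad grey line), with 1 library per point. Mlkl is at 1.55 on day 1, -1.56 on day 4 and -0.19 on day 5, Ripk1 stays between 0.04 and 0.47, and the grey median is at 2.58, -2.65 and 1.15 on days 1, 4 and 5.

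The promoters of the RIPK genes and Mlkl are shown because these 3 genes act in sequence yet differed in range. Each window runs from 250 bases before to 50 bases after the annotated start (RefSeq, GRCm38.p6, 5′ to 3′ on the gene's strand): Mlkl at chr8:111338156-111338455 on the minus strand, Ripk3 at chr14:55788808-55789107 on the minus strand and the second of the 2 Ripk1 starts at chr13:34002624-34002923 on the plus strand. Capitals mark the core of the interferon-stimulated response element (GAAA, any 2 bases, GAAA), searched on both strands.
Mlkl: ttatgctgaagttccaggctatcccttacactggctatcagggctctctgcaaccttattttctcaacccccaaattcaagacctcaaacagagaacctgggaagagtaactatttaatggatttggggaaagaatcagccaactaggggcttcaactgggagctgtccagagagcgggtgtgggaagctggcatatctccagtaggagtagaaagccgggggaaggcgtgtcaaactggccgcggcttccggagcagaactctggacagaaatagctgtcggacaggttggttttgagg
Ripk3: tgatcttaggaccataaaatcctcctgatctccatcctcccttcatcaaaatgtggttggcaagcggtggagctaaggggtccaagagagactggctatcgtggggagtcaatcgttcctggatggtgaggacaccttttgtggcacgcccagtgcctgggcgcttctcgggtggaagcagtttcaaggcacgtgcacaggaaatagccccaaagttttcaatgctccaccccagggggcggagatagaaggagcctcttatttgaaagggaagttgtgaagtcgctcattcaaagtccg
Ripk1: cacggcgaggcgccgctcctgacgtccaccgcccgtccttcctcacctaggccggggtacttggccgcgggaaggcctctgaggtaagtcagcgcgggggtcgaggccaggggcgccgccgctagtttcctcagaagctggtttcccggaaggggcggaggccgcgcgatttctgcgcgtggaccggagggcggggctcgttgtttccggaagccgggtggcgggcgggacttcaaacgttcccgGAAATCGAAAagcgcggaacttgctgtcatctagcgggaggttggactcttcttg
A promoter was listed for 30 of the 33 genes. Of these, 2 held that core, Ripk1 and Cflar, against 3.99% of 27025 genes with a promoter in the table. The core of the STAT site, TTCNNNGAA, was found in 2, Ripk1 and Casp12, against 9.55% of all genes, and in that Ripk1 window it occurs at 2 places, 1 of which overlaps the marked core. Neither motif occurs in the Mlkl and Ripk3 windows, nor in that of the first Ripk1 start, at chr13:34002113-34002412 on the plus strand.

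On day 1, 4 of the 26 expressed regulators were at least 2-fold above mock and 0 were at least 2-fold below, beside 6.68% and 9.58% of the 10000 expressed genes. Under total-count scaling Bid did not pass, and 3 of 26 were higher and 0 lower, beside 3.82% and 12.9%. The 4 were Bcl2l1, Mlkl, Bax and Bid, which encode 1 inhibitor and 3 promoters of death. The median log2 ratio of the 26 was 0.25, beside 0.15 for all expressed genes, and all 5 genes of the death adaptor, necroptosis and gasdermin D group lay above 0, as did 16 of the 26 and 6011 of the 10000 expressed genes. The most negative ratios were those of Casp2 at -0.73, Pmaip1 at -0.72 and Bbc3 at -0.65.

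On day 3, 0 of 26 passed 2-fold in either direction, beside 3.73% of expressed genes higher and 5.71% lower. Fadd at 0.90, Bad at 0.86 and Casp6 at 0.85 were nearest on the high side, and Bcl2a1a at -0.95 and Pmaip1 at -0.86 on the low side. Bcl2a1a passed 2-fold under each of 3 other scalings and with a pseudocount of 1. Against day 1, 2 regulators were at least 2-fold higher, Casp6 and Casp2, and 4 were lower, Mlkl, Bcl2l1, Bid and Gsdmd, beside 9.72% and 8.21% of expressed genes. The largest of these was Mlkl at -2.09 (counting interval -2.35 to -1.99).

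On day 4, Fadd was at least 2-fold above mock and Mlkl and Ripk3 below, so 1 and 2 of 26, beside 3.31% and 8.11% of expressed genes (2.24% and 10.3% under total-count scaling). In the step from day 3, 0 were at least 2-fold higher and 2 lower, Ripk3 at -1.38 and Mlkl at -1.02 (-0.90 in the weakest of 4 scalings), beside 3.23% and 5.89%. With median-centred libraries 0 were higher and 1 lower in this step, beside 4.48% and 4.87%. The 3 Bcl2a1 copies were all higher in this step, by 0.80, 0.91 and 0.81 for Bcl2a1a, Bcl2a1b and Bcl2a1d.

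On day 5, 0 of 26 passed 2-fold against mock, beside 3.68% higher and 6.4% lower among expressed genes. Bcl2l1 at 0.89 and Gsdmd at 0.67 were highest, and Bcl2a1a at -0.97, Pmaip1 at -0.95 and Ripk3 at -0.87 lowest. Under total-count scaling 3 regulators were at least 2-fold lower, beside 7.49% of expressed genes, and 0 higher, beside 2.40%. In the step from day 4, Mlkl was at least 2-fold higher and Fadd lower (1.37 and -1.02), so 1 of 26 each, beside 5.4% and 3.11%. With median-centred libraries 1 was higher and 2 lower, beside 3.56% and 5.36%. Under total-count scaling Fadd did not pass 2-fold in that step, and its ratio was -0.97 in the weakest of 4 scalings.

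On day 7, 0 of 26 were at least 2-fold above mock and 4 below, Ripk3, Mlkl, Bad and Pmaip1, beside 1.96% and 6.57% of expressed genes. The median was -0.52, beside -0.11 for all expressed genes, and 20 of 26 lay below 0, beside 5760 of 10000. Under total-count scaling these medians were -0.24 and 0.16, 2 of 26 were at least 2-fold lower, beside 2.96% of expressed genes, and 1 was higher, Bcl2 at 1.13, beside 5.62%. In the step from day 5, Bcl2 was at least 2-fold higher and Mlkl and Bad lower, beside 5.07% and 4.68%. Under total-count scaling neither Mlkl nor Bad passed 2-fold in that step, beside 8.39% of expressed genes higher and 1.45% lower. The 5 comparisons with mock share that library and are not independent.

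**Figure D3:**
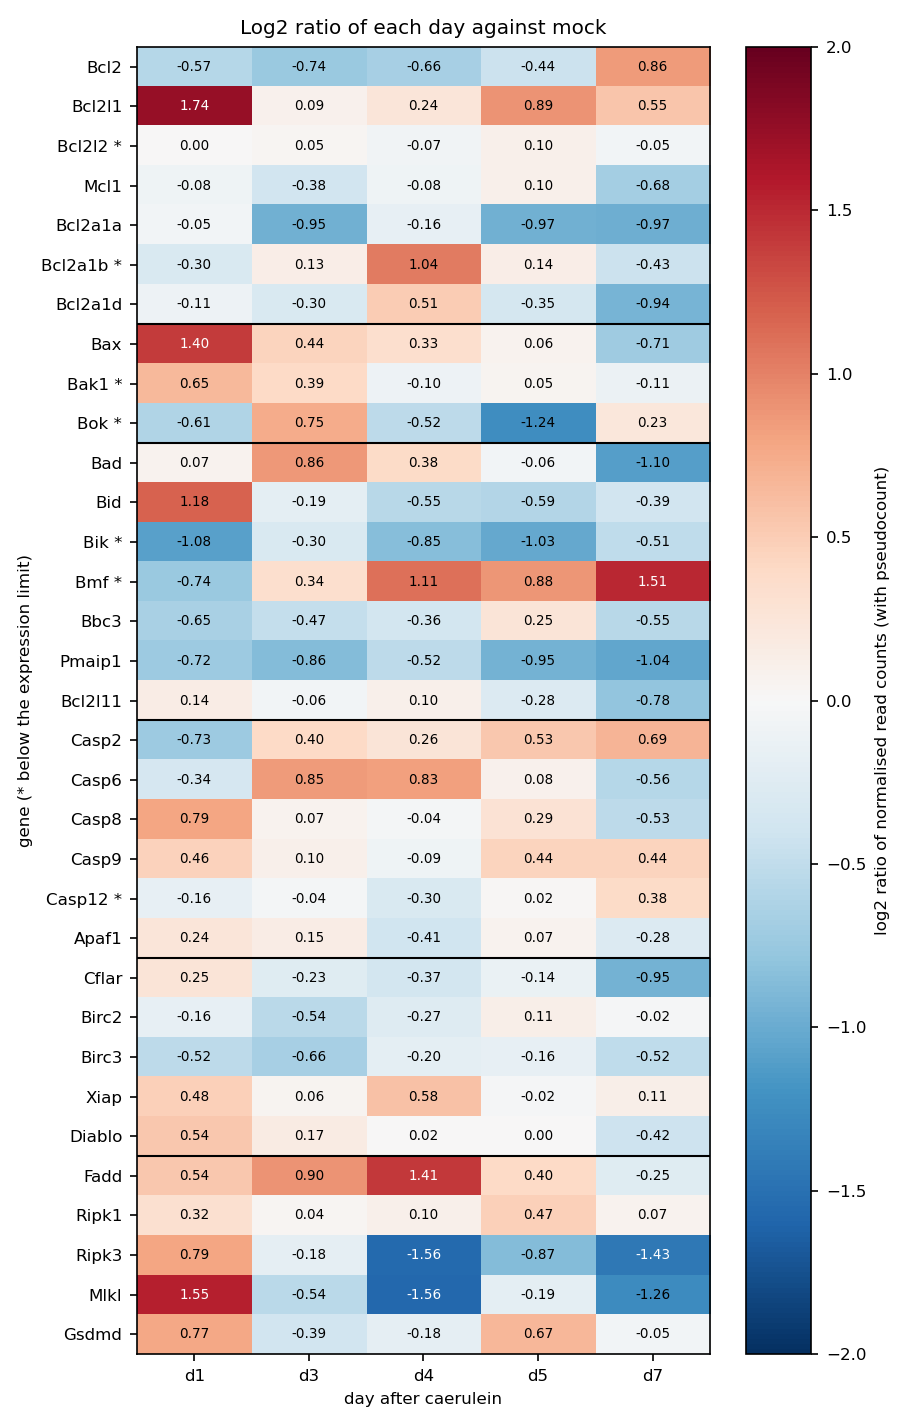
Log2 ratio of each day against mock, with the pseudocount, for the 33 regulators (rows, in 6 groups by role) and the 5 days (columns), with 1 library per cell and asterisks on the 7 genes under the expression limit. Day 1 holds the highest ratios, 1.74 for Bcl2l1 and 1.55 for Mlkl, and day 7 has mostly negative ones.

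**Figure D4:**
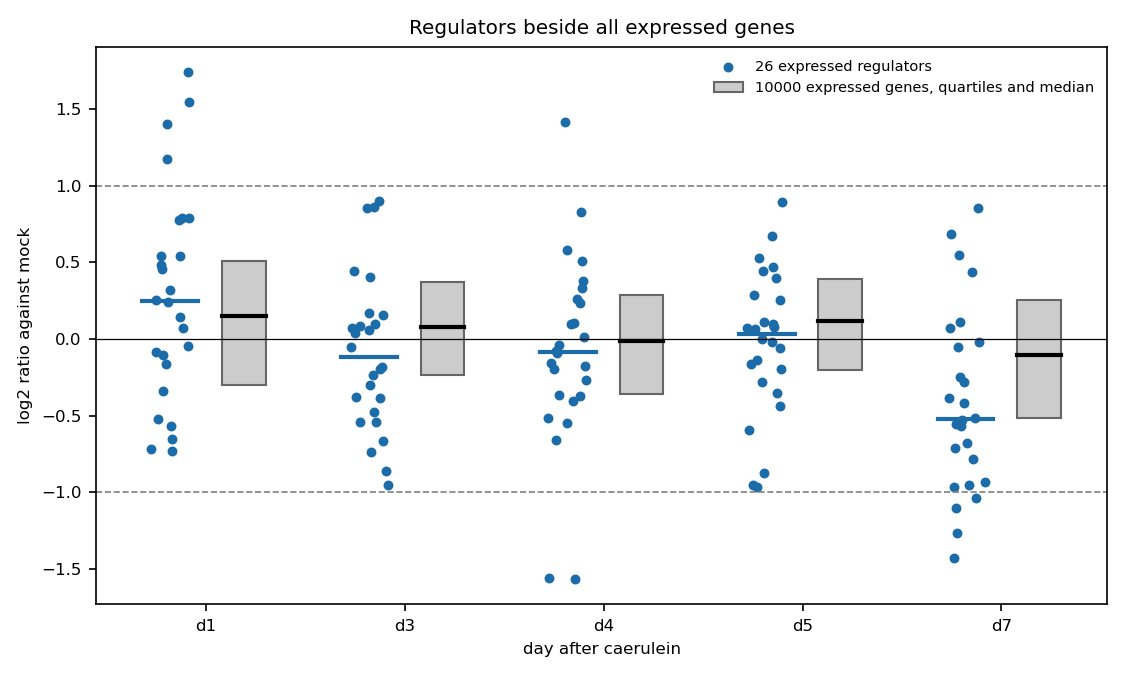
Log2 ratio against mock by day for the 26 expressed regulators (points, with a bar at their median) beside the quartiles and median of the 10000 expressed genes (grey boxes), with dashed lines at 2-fold. The median of the regulators is 0.25 on day 1 and -0.52 on day 7, beside 0.15 and -0.11 for all expressed genes.

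Over the 6 libraries 15 of the 26 expressed regulators had a highest value at least 2-fold over their lowest, beside 54.4% of expressed genes. The highest value fell on day 1 for 8 of the 15 (Bax, Bcl2l1, Bid, Casp8, Cflar, Gsdmd, Mlkl and Ripk3), beside 33.6% of the 5443 expressed genes with such a range. The lowest fell on day 7 for 8 of the 15 (Bad, Bax, Bcl2a1d, Casp6, Casp8, Cflar, Fadd and Pmaip1), beside 39.7%. With total-count scaling 6 of 14 such regulators were highest on day 1, beside 18.6% of genes, and with TMM scaling 7 of 15, beside 24.4%. With total-count scaling 3 of 14 were lowest on day 7, beside 14.2% of genes, and with TMM scaling 5 of 15, beside 26.5%. The median range was 2.27-fold for the 26 regulators and 2.10-fold for all expressed genes.

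A shift shared by all caerulein days, or a steady course over the days, could be tested with the days as replicates. With limma, 0 of 26 regulators and 0 of 10000 genes differed between the 5 caerulein libraries and mock at an adjusted p of 0.05, and 0 regulators and 64 genes (0.64%) had an unadjusted p under 0.05. edgeR also called 0 genes, with 64 genes (0.64%) under an unadjusted 0.05, among them Pmaip1, and DESeq2 called 1 gene (0.0101%), not a regulator, with 93 (0.94%) under an unadjusted 0.05, Pmaip1 again among them. For a linear trend over day limma called 0 genes and 626 (6.26%) had an unadjusted p under 0.05, among them the 4 regulators Ripk3, Casp2, Cflar and Bcl2a1a. Ripk3 had the steepest of these, with a slope of -0.29 ± 0.09 (SE) log2 units per day and a limma adjusted p of 0.65; its adjusted p was 0.61 in edgeR and 0.075 in DESeq2. edgeR called 0 genes for the trend, with 681 (6.81%) under an unadjusted 0.05, among them Ripk3, Casp2, Cflar and Mlkl. DESeq2 called 30 genes (1.34% of the 2245 with an adjusted p) and none of the 9 regulators to which it gave an adjusted p; the other 17, Mlkl and Casp2 among them, had none. Its 914 genes (9.14%) under an unadjusted 0.05 included Ripk3, Casp2, Cflar, Mlkl and Bax. These tests count other differences between days as error.

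Further genes of the death pathways were taken from lists by role. Of 12 expressed death receptor and ligand genes, 2 were at least 2-fold higher than mock on day 1 and 1 lower. The shares of all expressed genes on that day were 6.68% and 9.58%. On day 3, 0 were higher and 3 lower, beside 3.73% and 5.71%, and on day 4, 1 and 2, beside 3.31% and 8.11%. On day 5, 0 were higher and 2 lower, beside 3.68% and 6.4%, and on day 7, 1 and 3, beside 1.96% and 6.57%. Fasl, the ligand of cytotoxic lymphocytes, had log2 ratios against mock of -2.27 on day 3 and 1.09 on day 7, the days on which the T and NK cell markers summed to their lowest and highest values, whose part in it was not tested. Tnfsf10, which encodes TRAIL, was at 1.23 on day 1 and -1.63 on day 3. Fas was at -0.13, -0.26, -0.70, -1.42 and -1.47 on days 1, 3, 4, 5 and 7, and Tnf at -2.60 on day 7.

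Among 12 expressed genes for ubiquitin and kinase checkpoints on RIPK1, Zbp1 and Ikbke were at least 2-fold higher on day 1, at 2.01 and 1.33, and Tnfaip3, which encodes the brake A20, was lower at -1.29. That was 2 and 1 of 12, beside 6.68% and 9.58% of expressed genes. On day 3, 0 were higher and 1 lower, Zbp1 at -1.75, beside 3.73% and 5.71%. On day 4 again 0 were higher and 1 lower, Zbp1 at -2.54, beside 3.31% and 8.11%. On days 5 and 7 none passed 2-fold. Casp4, an inflammatory caspase that cleaves gasdermin D, was at least 2-fold lower than mock on day 3 at -1.20 and on day 7 at -1.35.

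Of 7 mitochondrial death factors and nucleases, Cycs was at 1.76 on day 1 and -1.18 on day 7, and no other passed 2-fold. That was 1 of 7 higher on day 1 and 1 of 7 lower on day 7, beside 6.68% and 6.57% of expressed genes. Cycs encodes the cytochrome c that APAF1 binds. Of 8 expressed p53 genes and targets 2 were at least 2-fold higher on day 1, Aen at 1.41 and Phlda3 at 1.34, beside 6.68% of expressed genes. Phlda3 was at 1.75 on day 3, and Cdkn1a was at -1.57 on day 7. Trp53 itself ranged from 1117 to 1581 normalised read counts. Of 5 expressed BIR genes Birc5, a mitotic gene, was at -3.46 on day 1 and 1.92 on day 3. The 8 dividing cell markers, Birc5 among them, summed to 4644 in mock and to 484, 15494, 1086, 779 and 1881 on days 1, 3, 4, 5 and 7, with none at 0. None of 4 further BCL2 family genes, nor of the 2 expressed genes for membrane rupture and other gasdermins, passed 2-fold on any day. Among all expressed genes, 1.96% to 6.68% were at least 2-fold higher and 5.71% to 9.58% lower, depending on the day.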

How the data were processed

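RNA-seq of sorted pancreatic macrophages was compared over 6 libraries, 1 per day, grouped by their labels. Values were deposited as a normalised signal for each gene. Divided by the smallest step of its column, 100% of values came out whole within 0.01 reads, so the authors' signal is a gene's read count over 1 factor per library. The submitters' processing notes name Bowtie 0.12.2 and mm8 without a role, and counter, annotation and strand setting were not given in the sources used here. Mouse gene names were matched to 99.4% of the identifiers.

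Log2 ratios used a pseudocount of 17.8, which is 1e-06 of the mean column total and makes ratios of scarce genes smaller than they were. Genes were called expressed if among the 10000 with the highest mean, and were counted at 2-fold. Intervals are 95% Clopper-Pearson intervals of reads, which carry no molecular identifiers and so may repeat a molecule. A floor of 3 reads was worth 2.11 to 3.88 units, and no regulator was under it. Tests used limma 3.58.1 on the log2 values of all expressed genes with Benjamini-Hochberg adjustment, and edgeR 4.0.16 (quasi-likelihood) and DESeq2 1.42.0 on recovered reads, in R 4.3.3; edgeR called 0 genes in either test. The calculations were tested on simulated data. Other steps used Python 3.11.15.

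The members and lists were chosen with earlier results of these data known. All 33 regulators are named; from the other pathway lists, expressed genes at least 2-fold from mock on at least 1 day could be named, and Trp53 was added after its values were seen. Some genes of these lists are not reported here. Alternatives were other pseudocounts, scalings, filters and tools, and leaving out each caerulein library.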

Additional observations from a re-analysis of the deposited data

How the results depend on the processing

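No paired analysis was possible because each day had 1 library and the labels carry no replicate numbers. The 165 single log2 ratios against mock were recomputed under 5 other scalings and pseudocounts. Of 825 values, 674 moved by less than the distance from the counting interval's middle to its end, and 151 did not. No ratio past 2-fold changed sign. The sign differed among the 4 scalings for 25 ratios, the largest of them 0.14 in size. Total-count scaling moved the median of all expressed genes on day 1 to -0.08, against 0.15 with the authors' factors, and on day 7 to 0.16, against -0.11.

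Because the counts of regulators past 2-fold are small, several differed by more than 1.5 times. With no filter, which adds the 7 scarce genes, 1 was lower on day 1, 3 were higher on day 4, 2 lower on day 5 and 1 higher on day 7, and 4 were higher on day 3 than on day 1 and 2 on day 7 than on day 5. With a pseudocount of 1, 1 was higher and 1 lower on day 3 and 1 lower on day 5. With a pseudocount 5 times larger, 0 were higher on day 4, 2 lower on day 7, 1 higher on day 3 than on day 1, 1 lower on day 4 than on day 3, 0 lower on day 5 than on day 4 and 0 lower on day 7 than on day 5. With total-count scaling 1 was lower on day 3, 3 on day 5 and 2 on day 7, 1 was higher on day 7, 0 were lower in the steps to days 5 and 7, and 3 had their lowest value on day 7. With TMM 1 was lower on day 3, 2 on day 5 and 2 on day 7, 1 was higher on day 7, 1 was lower in the step to day 4 and 0 in that to day 7, and 5 were lowest on day 7. With median-centred libraries 1 was lower on day 3 and 2 on day 5, and 1, 2 and 0 in the steps to days 4, 5 and 7. Among the 6000 highest genes, which hold 22 of the regulators, 0 were higher and 1 lower on day 4, 1 lower in the step to day 4, 0 higher and 0 lower in that to day 5, and 1 lower in that to day 7. Apart from the filters, which change the genes counted, the cause was not tested. The counts by day of the highest and lowest value were recomputed as an alternative chosen after seeing the data.

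The tests over the 6 libraries called 0 regulators under each setting run, including each fit that left out 1 caerulein library, but DESeq2 gave an adjusted p to 9 of the 26 for the trend. Over all genes DESeq2 called 1 against mock and 30 for the trend, where limma and edgeR called 0. With 1 mock library, a regulator that differed in that pool alone cannot be told apart from one changed by caerulein.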
